A study of Arabidopsis thaliana with 6 samples.

Results

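The genes of autophagy described here are the 10 genes with a probe set named by a single symbol that starts with ATG or APG and a digit, of 13356 genes with such a probe set on the array. They are 9 genes of the ATG8 family and ATG3. The platform annotation calls 2 of the ATG8 genes by older symbols: APG8A, whose synonym is ATG8A, and APG8H, which is the locus AT3G15580 with the synonym ATG8I and is not the gene ATG8H (AT3G06420). All 9 paralogs of the list ATG8A to ATG8I were thus measured, whereas ATG3 was the only other member. Leaf RNA was compared between Arabidopsis thaliana accession Col-0, the wild type, and des1-1, a SALK insertion mutant, with 3 biological replicates of each genotype on Affymetrix ATH1 arrays. Both groups were 3 weeks old and grew in soil supplied with Hoagland medium, under 16 h of light at 20 °C and 8 h of dark at 18 °C. A single mutant allele was used, and no treatment was applied to either group. The deposited values are log2 expression values made with RMA, so a difference of 1 is a 2-fold change.

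In autophagy, cytoplasmic material is enclosed in a double membrane, the autophagosome, and carried to the vacuole for breakdown. ATG8 proteins resemble ubiquitin, and the protease ATG4 trims most of them to a terminal glycine. ATG7 and then ATG3 pass ATG8 proteins on to the lipid phosphatidylethanolamine of the growing membrane, where they also bind cargo receptors. Arabidopsis has a whole family of ATG8 genes, of which ATG8H and ATG8I form a branch of their own, and many of them are known to be induced by starvation and during leaf senescence. DES1 is a cytosolic cysteine desulfhydrase that releases sulfide from cysteine, and sulfide made by it is known as a repressor of autophagy in Arabidopsis leaves. The comparison gives the transcript levels of this machinery in leaves with and without an intact DES1 gene.

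Each array gave a value for 22810 probe sets, of which 22746 are not controls. Over those 22746, array medians lay between 5.78 and 5.81 and lower quartiles between 4.69 and 4.78. DES1 had no probe set with a single gene name, so the disrupted gene could not serve as a check of the genotype labels. Of the listed markers, 4 of 8 for leaf and 2 of 6 for root had a probe set with a single gene name. The photosynthesis genes LHCB4.1, LHCB4.2, PRK and RCA lay between 12.33 and 14.12 on every array. The root hair genes EXPA7 and EXPA18 lay between 4.73 and 5.74. One wild-type array, replicate 2, stood apart in the 25S ribosomal RNA control, at 10.2 against 5.49 to 6.20 elsewhere. All 10 members lay above the array medians on every array, with values from 6.0 to 11.34, and none of their probe sets carries the suffix for sets shared between transcripts. Probes differ in brightness, so levels are compared between arrays and not between genes.

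All 9 ATG8 paralogs had a higher mean in des1-1, by 0.06 to 0.56 on the log2 scale, and ATG3 had a lower one, by 0.12. The median difference of the 9 paralogs was 0.34, a 26.6% higher level, against a median of 0.00 over all probe sets, whose 5th and 95th percentiles were -0.31 and 0.29. None of the 10 passed an adjusted p under 0.05 (limma, Benjamini-Hochberg over 22746 probe sets), a threshold passed by 0.387% of all probe sets. At an unadjusted p under 0.05, 6 of the 9 paralogs were higher, against 7.9% of all probe sets. In the same 6 genes, APG8A, ATG8B, ATG8C, ATG8D, ATG8E and APG8H, every des1-1 array lay above every wild-type array, which held for 9.87% of all probe sets. RNA of whole leaves was measured, so a change in the number of cells that express a gene and a change in its level per cell cannot be told apart.

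**Figure D1:**
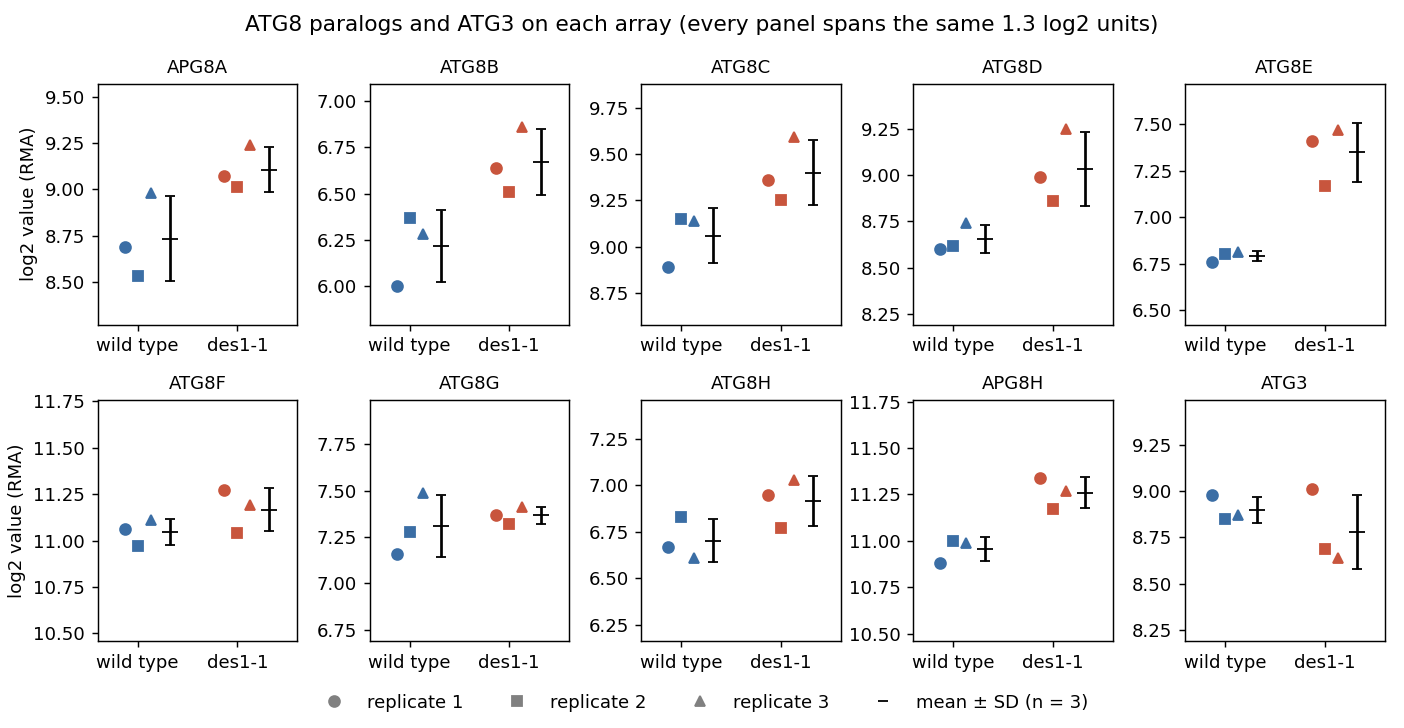
Log2 RMA value of each of the 10 autophagy genes on each of the 3 wild-type (blue) and 3 des1-1 (red) arrays, with the mean ± SD beside the points. Symbols mark the replicate number, and every panel spans the same 1.3 log2 units around its own centre. ATG8E shows the widest gap between genotypes, and ATG8F, ATG8G, ATG8H and ATG3 overlap.

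ATG8E had the largest difference and the widest separation. Its values were 6.76, 6.80 and 6.81 on the wild-type arrays and 7.41, 7.17 and 7.47 on the des1-1 arrays. The lowest des1-1 array thus lay 0.36 above the highest wild-type array, and the wild-type arrays were nearly equal. The means were 6.79 ± 0.03 and 7.35 ± 0.16 (SD, n = 3 each), a 1.47-fold higher level in des1-1 (95% interval 1.28 to 1.70) with an adjusted p of 0.0538 in limma. This p was the 97th smallest of the 22746, where 88 probe sets passed. ATG8E did pass under 8 of 16 alternative settings, among them the 3 further normalizations. It also passed in limma without des1-1 replicate 1 (adjusted p = 0.0418) or without des1-1 replicate 2 (0.0352). Over the whole array 765 and 39 probe sets passed in these 2 fits. ATG8E did not pass without wild-type replicate 1, 2 or 3 (0.255, 0.225 and 0.152) or without des1-1 replicate 3 (0.16). Its adjusted p ran from 0.0249 to 0.456 over the 16.

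The paralogs named A to D were separated by smaller steps. ATG8B read 6.0, 6.37 and 6.28 in the wild type and 6.64, 6.51 and 6.86 in des1-1, a difference of 0.45 ± 0.12 (SE; adjusted p = 0.155 in limma). Its wild-type arrays spanned nearly as much as the genotypes differed. For ATG8D the wild-type values were 8.60, 8.62 and 8.74 and the des1-1 values 8.99, 8.86 and 9.25, a difference of 0.38 ± 0.11 (adjusted p = 0.162). The closest arrays of the 2 genotypes were 0.12 apart.

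APG8A stood at 8.69, 8.53 and 8.98 in the wild type and at 9.07, 9.01 and 9.24 in des1-1. The difference was 0.37 ± 0.12 (SE; adjusted p = 0.203), but wild-type replicate 3 came within 0.03 of the lowest des1-1 array. ATG8C gave 8.89, 9.15 and 9.14 in the wild type and 9.36, 9.25 and 9.59 in des1-1, a difference of 0.34 ± 0.11 (adjusted p = 0.206), with 0.10 between the closest arrays. Wild-type replicate 1 was the low array for ATG8B and ATG8C and replicate 2 for APG8A.

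ATG8F and ATG8G, named next to ATG8E, did not share its separation. ATG8F read 11.06, 10.97 and 11.11 in the wild type and 11.27, 11.04 and 11.19 in des1-1, a difference of 0.12 with a 95% interval of -0.07 to 0.31. ATG8G read 7.16, 7.28 and 7.49 against 7.37, 7.32 and 7.41, a difference of 0.06 (-0.16 to 0.27). In ATG8G the highest single value was a wild-type one, and without wild-type replicate 1 its difference turned to -0.02.

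Of the separate branch, APG8H was the more clearly separated gene. APG8H stood at 10.88, 11 and 10.99 in the wild type and at 11.34, 11.17 and 11.27 in des1-1. Its difference of 0.30 ± 0.08 (SE) was the fourth smallest of the 9, yet its unadjusted p of 0.00429 was second to that of ATG8E, and its adjusted p was 0.146 in limma. ATG8H read 6.67, 6.83 and 6.61 against 6.95, 6.77 and 7.03, a difference of 0.21 with a 95% interval of -0.01 to 0.43. Wild-type replicate 2 lay above des1-1 replicate 2 in ATG8H, so its genotypes overlapped.

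ATG3, the enzyme that attaches ATG8 to the lipid, read 8.98, 8.85 and 8.87 in the wild type and 9.01, 8.69 and 8.64 in des1-1. The difference was -0.12 with a 95% interval of -0.36 to 0.12 (adjusted p = 0.668 in limma), and des1-1 replicate 1 was the highest of all 6 arrays while the other des1-1 arrays were the lowest. Setting each ATG8 value against ATG3 on the same array removes what both share on that array. The mean of the 9 ATG8 values minus ATG3 was -0.68, -0.46 and -0.41 on the wild-type arrays and -0.30, -0.12 and 0.17 on the des1-1 arrays. The des1-1 arrays were all the higher ones, and the closest arrays of the 2 genotypes differed by less than the spread within either. Across all probe sets, scores on the leading principal component put the arrays in the same order, at -19.56, -14.99 and -7.54 for wild-type replicates 1 to 3 and at 1.36, 12.70 and 28.04 for des1-1 replicates 1 to 3. The ATG8 mean without ATG3 followed that order in the wild type but not in des1-1, where replicate 2 was lowest, and the part of this array-wide gradient in the ATG8 differences was not tested.

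Gene by gene, the shift of an ATG8 paralog over that of ATG3 ran from 0.18 for ATG8G to 0.68 for ATG8E. It separated the genotypes without overlap in 6 of 9 paralogs (ATG8B, ATG8C, ATG8D, ATG8E, ATG8F and APG8H), against 6.2% of all probe sets set against ATG3 in the same way. All 9 pairs share the same ATG3 values, so the difference of -0.12 in ATG3 enters every shift. ATG8F overlapped on its own and separated only against ATG3, and for APG8A the reverse held. For ATG8E minus ATG3 the values were -2.22, -2.05 and -2.06 in the wild type and -1.60, -1.52 and -1.17 in des1-1. Each of the 6 gave an exact two-sided permutation p of 0.1, the smallest that 3 against 3 arrays allow, and 0.15 after adjustment over the 9 pairs. A p under 0.05 was therefore out of reach, and 1 gene stands for all members outside the ATG8 family.

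**Figure D2:**
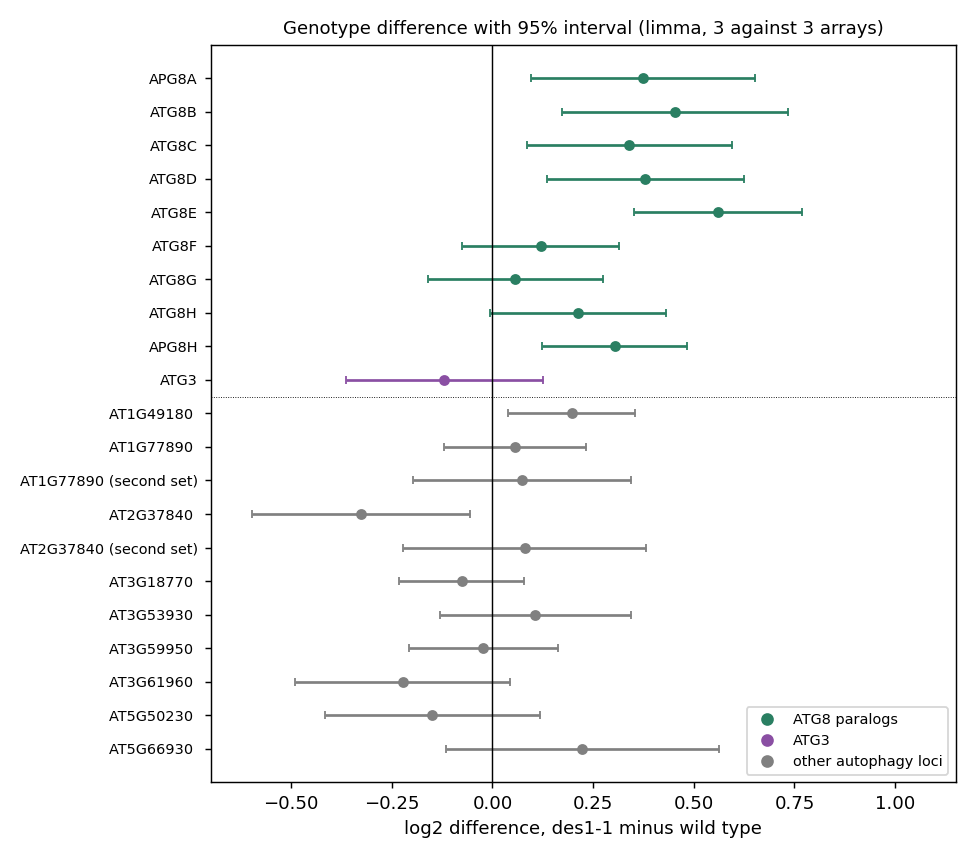
Log2 difference (des1-1 minus wild type) with its 95% interval from limma for the 9 ATG8 paralogs, ATG3 and the 11 probe sets of 9 other autophagy loci. The intervals of 6 ATG8 paralogs lie above 0, while those of the other loci lie on both sides, AT2G37840 reaching down to -0.60.

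The order of the des1-1 arrays was much the same from paralog to paralog. In all 9, des1-1 replicate 2 had the lowest value of the des1-1 arrays, as in 29.5% of all probe sets, and in 7 of 9 des1-1 replicate 3 had the highest, as in 34.1%. The mean over the 9 paralogs was 8.30, 8.39 and 8.46 on wild-type arrays 1 to 3 and 8.71, 8.57 and 8.81 on des1-1 arrays 1 to 3. No wild-type mean reached the lowest des1-1 mean, 0.11 above the highest wild-type one. The gap between the 3 prime and 5 prime probe sets of GAPDH, a control for RNA integrity and labelling, also separated the genotypes in 1 of its 2 control pairs. There it was -0.68 ± 0.05 for wild-type arrays and -0.47 ± 0.13 for des1-1 arrays (SD, n = 3 each). In the other pair it was 1.01 ± 0.23 and 0.97 ± 0.12, and the same gap of 1 actin control pair was 1.28 ± 0.17 and 1.32 ± 0.08, both with overlap. The gap of the other actin pair overlapped too. For ubiquitin the 3 prime set read 13.3, 13.18 and 13.27 in the wild type and 13.32, 13.22 and 13.38 in des1-1. Its 5 prime set read 11.93, 11.81 and 11.91 against 11.89, 11.83 and 12.0. The ubiquitin gap was thus larger on every des1-1 array than on any wild-type array, by a narrow margin. The part of the GAPDH and ubiquitin gaps in the ATG8 differences was not tested.

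**Figure D3:**
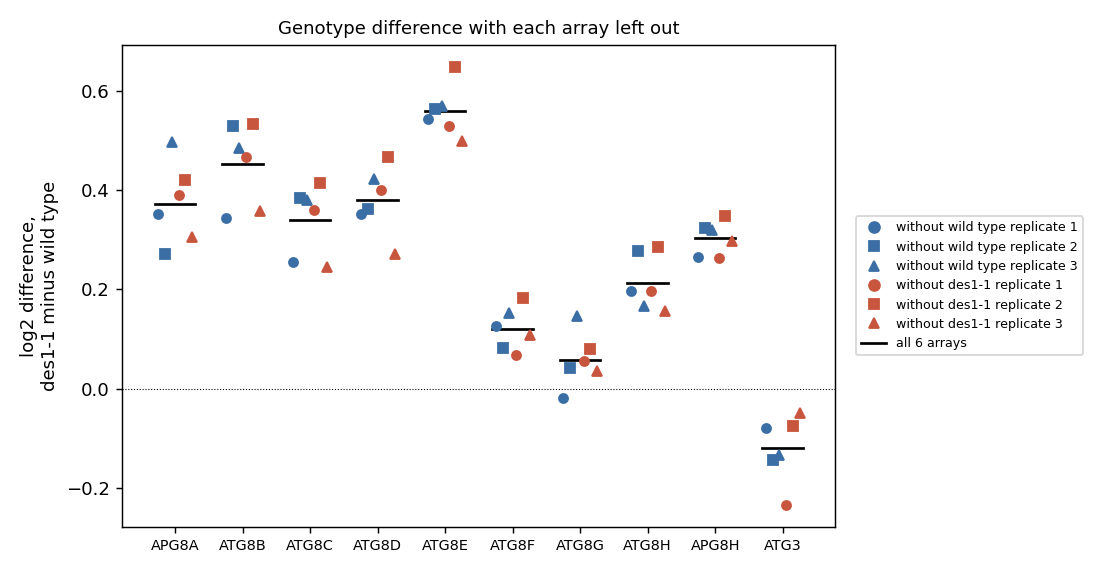
Log2 difference (des1-1 minus wild type) of the 9 ATG8 paralogs and ATG3 with all 6 arrays (black lines) and with each array left out in turn (points). The sign held for every gene except ATG8G, which reached -0.02 without wild-type replicate 1, and ATG8E stayed between 0.50 and 0.65.

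Beyond the members, 9 of 31 further loci of the autophagy pathway had a probe set with a single gene name, 11 probe sets in all. Neither the platform annotation nor the reference table gives a gene name for 8 of the 9, which are listed by locus, and the ninth, AT5G66930, has the synonym ATG101. Their median difference was 0.06, with 6 probe sets higher and 5 lower. In either direction 0 of 11 passed the test, against 0.387% of all probe sets. Unlike the members, some of them lay below the array medians on every array. The 2 probe sets of AT1G77890 read 4.14 to 4.33 and 4.77 to 5.22, and AT3G53930 read 4.79 to 5.20. At an unadjusted p under 0.05, 1 was higher and 1 was lower, against 7.9% and 7.66% of all probe sets. AT1G49180 read 5.97, 6.0 and 5.95 in the wild type and 6.21, 6.12 and 6.18 in des1-1, a difference of 0.20 ± 0.07 (SE; adjusted p = 0.226 in limma). One probe set of AT2G37840 read 6.66, 6.82 and 6.66 against 6.61, 6.15 and 6.40, a difference of -0.33 ± 0.12 (adjusted p = 0.238). The other probe set of that locus was dimmer, at 5.34 to 5.86, and differed by 0.08 ± 0.13, so the 2 disagree in sign. ATG101, a subunit of the initiating kinase complex, differed by 0.22 with a 95% interval of -0.12 to 0.56, and its des1-1 arrays ranged from 6.42 to 6.96.

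On related lists of nutrient signalling, vacuolar proteases, senescence and trafficking, 0 of 11 probe sets passed limma's test, against 0.387% of all probe sets. At an unadjusted p under 0.05, 0 were higher and 0 lower, against 7.9% and 7.66% of all probe sets. Of the listed loci, 2 of 6, 4 of 6, 4 of 9 and 1 of 10, in that order, had a probe set with a single gene name. The counts hold for these measured loci only. The regulators RAPTOR1 and RAPTOR2, partners of the TOR kinase that holds autophagy back, differed by 0.10 ± 0.14 and 0.05 ± 0.08 (SE). The vacuolar processing enzymes ALPHA-VPE, BETA-VPE, GAMMA-VPE and DELTA-VPE, proteases of the vacuole, differed by -0.05 to 0.11. DELTA-VPE was dim, at 4.33 to 4.55, below the lower quartile of every array. GAMMA-VPE was the one without overlap, at 12.69 to 12.81 in the wild type and 12.84 to 12.90 in des1-1. Such a separation with des1-1 higher held for 9.87% of all probe sets. The senescence genes SAG101, SAG29, WRKY53 and WRKY6 differed by -0.04 to 0.16 and overlapped. AT4G34660 differed by -0.09 ± 0.09. No gene of the starvation-responsive list had a probe set with a single gene name.

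**Figure D4:**
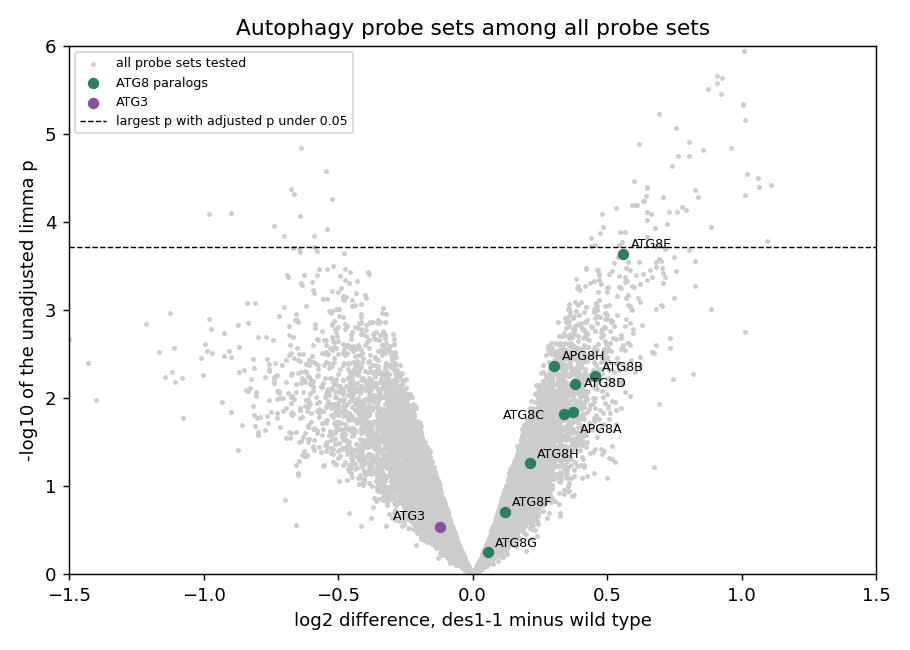
Log2 difference (x axis, des1-1 minus wild type) against -log10 of the unadjusted limma p (y axis) for all probe sets (grey), the 9 ATG8 paralogs (green) and ATG3 (purple), with 15 probe sets outside the axes. ATG8E lies just under the dashed line, the largest p with an adjusted p under 0.05, and the other paralogs form a graded series down to ATG8G.

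The genes whose profile over the 6 arrays was most like the ATG8 mean were sought among 2141 probe sets with a single gene name, a mean above the median and a range of at least 0.5. The 5 closest were AT5G17610, AT2G18690, AT3G16190, AT1G15420 and AT4G21870, with Pearson correlations of 0.993 to 0.996 with the ATG8 mean, as a description without a test. AT5G17610 read 6.15, 6.32 and 6.40 in the wild type and 6.71, 6.49 and 6.84 in des1-1, with the same order of arrays as the ATG8 mean. The genes were picked for their likeness over these same 6 arrays. A shared order and a higher level in des1-1 therefore follow from the choice and are no separate result. AT4G21870 had the largest difference of the 5, 0.71 ± 0.13 (SE), and did not pass (adjusted p = 0.074 in limma). Closest to ATG8E alone were AT1G08230, AT3G11780 and AT5G58570, with correlations of 0.987 to 0.993. All of these 8 genes had a higher mean in des1-1. Only AT5G58570 passed, going from 8.40 ± 0.03 to 9.31 ± 0.12 (SD, n = 3 each) with an adjusted p of 0.004 in limma.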

How the data were processed

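The authors deposited log2 values. The submitters' processing notes name RMA and affy, without versions. RMA subtracts background, equalises the distributions of the arrays and summarises probes, which removes any array-wide shift. Of 22810 probe sets, 64 controls were left out of the tests. A platform annotation named 13513 of the others with 1 gene, and the TAIR10.1 reference table gave loci and synonyms for 13436. The genotype test was that of limma 3.58.1 under R 4.3.3 (lmFit and eBayes, two-sided, with genotype alone in the model), which gave every SE, 95% interval and p of a single gene. The fit was tested on simulated data. Differences against ATG3 used exact permutation tests in SciPy 1.17.1. The members, the gene lists and the rule for similar profiles were chosen with earlier results of these data known, and every member is named. Arrays have no read depth, and their number limits precision. The labels do not state that same-numbered arrays belong together, so replicate numbers were not taken as pairs. Deviations from the genotype means correlated at 0.167, -0.229 and 0.211 between same-numbered arrays. Between the others they correlated at -0.312 to 0.160, so the correlations do not settle the pairing.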

Additional observations from a re-analysis of the deposited data

How the results depend on the processing

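Each of the 10 genes was refitted under 16 alternatives. The dimness filters, the intensity trend, robust eBayes and the replicate block leave the difference itself unchanged and alter only its p. Under the others all kept their sign except ATG8G, which ran from -0.0183 to 0.1467 with single arrays left out. ATG8G was below 0 only without wild-type replicate 1. The number of members that passed was 1, always ATG8E, after median centring, quantile normalization or cyclic loess, without the dimmest 25% or 50% of probe sets and with array weights, and 0 to 1 with single arrays left out. It stayed at 0 with an intensity trend or robust eBayes and without wild-type replicate 2 and des1-1 replicate 3 together. The 88 probe sets that passed over the whole array became 151 with an intensity trend, 9 without those 2 arrays (9 higher, 0 lower) and 20 to 765 with single arrays left out (19 to 219 higher, 0 to 546 lower). The 13 lower ones became 27 and 26 without the dimmest 25% and 50%, and 40 with the trend. With a replicate block 183 passed, 89 of them lower, and no member did (ATG8E adjusted p = 0.0595). The alternatives that could move the differences were the 3 further normalizations, array weights and the fits with arrays left out. In these the median difference of the ATG8 paralogs ran from 0.255 to 0.415 and the difference of ATG3 from -0.235 to -0.05. Both moved by less than the SD between replicates. For ATG3, leaving out 1 of 3 arrays of a genotype cannot move the difference by that SD, so those fits could not have come out otherwise. Fits with fewer arrays or fewer probe sets change the size of the data itself, and otherwise the cause of the changed counts was not tested.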
